A study of Mus musculus with 2 samples.

Results

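Myeloid lineage transcription factors are the DNA-binding proteins that direct bone marrow progenitors to monocyte, macrophage or granulocyte fate. The 9 genes described here are the rows of the deposited gene table whose symbol is one of the listed factors, Spi1, Cebpa, Cebpb, Cebpd, Cebpe, Klf4, Maf, Runx1 and Gfi1, and each matched 1 of the 34745 rows. The genes were picked by name, with earlier results of these data known.

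The cells were monocytic myeloid-derived suppressor cells (M-MDSC), immature myeloid cells that restrain T cells, grown from the bone marrow of mice aged 6 to 8 weeks. CHBP- M-MDSC were induced for 7 days with GM-CSF at 50 ng/ml alone, and CHBP+ M-MDSC with GM-CSF and CHBP, a cyclic helix B peptide derived from erythropoietin. The strain is labelled C57BL/6 in the first and C57BL/7 in the second, and the cells were sorted as CD11b+Ly6G-Ly6C high. The paper's methods name no C57BL/7. They took marrow from C57BL/6 mice and from mice on that background whose myeloid cells lack the erythropoietin receptor gene Epor. Their account of the sequencing does not say which of these mice gave the cells. Each condition was sequenced as 1 library from sorted cells made in culture, with no replicates and no count of the mice behind it, so CHBP cannot be told apart from whatever else set the libraries apart, and no p-value is given.

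In the marrow, PU.1 (the product of Spi1) and RUNX1 open the chromatin of myeloid genes in progenitors. The C/EBP proteins then act in sequence, with C/EBPα at the entry to the granulocyte and monocyte branch, C/EBPε in later granulocytes and C/EBPβ in monocytes and in cells under inflammatory demand, while GFI1 represses monocyte genes and KLF4 and MAF serve monocytes and macrophages. These factors are read together because a change in their balance, more than the presence of any one of them, is known to set the branch that a cell takes.

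All 9 genes had reads in both libraries and at least 1 FPKM in each. Gfi1 had 659 reads in the CHBP- and 336 in the CHBP+ library, and it was the 1 gene of the set whose level differed by more than 1.5-fold. The genes for C/EBPβ, C/EBPδ and C/EBPε were lower in CHBP+ M-MDSC by about the same factor, just short of that line, and Spi1 and Cebpa were lower by less. Klf4 stood at nearly the same level in both libraries, and Maf and Runx1 were higher in CHBP+ M-MDSC. Across all genes the difference between the libraries went with gene length, and the values of the 9 genes are given with and without that trend.

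The deposited counts came to 16484504 in the CHBP- and 16280466 in the CHBP+ library. Levels are in FPKM, reads divided by the length of the gene and by the library's counted reads, and differences are log2((FPKM in CHBP+ + 1)/(FPKM in CHBP- + 1)), called the log2 ratio, which understates the change of low genes. CPM is reads divided by the library's counted reads alone, and the CPM ratio (CHBP+ over CHBP-) is given with an exact 95% Clopper-Pearson interval that covers counting error only. A gene was kept where it had at least 1 FPKM in at least 1 library, which 10948 rows did.

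Promoter sequence is shown for Gfi1, the gene with the largest difference of the 9, and for the proximal promoter of Runx1, because these windows hold short matches to motifs of other factors of the set. RefSeq start sites on GRCm38.p6 gave 7 windows for 5 of the 9 genes (Cebpa, Cebpb, Klf4, Runx1 and Gfi1), each from 250 bases before to 50 bases after the start. The 250 bases before the start are printed 5′ to 3′ on the strand of the gene, with matches in capitals.
Gfi1, GRCm38.p6 chr5:107725806-107726055, minus strand: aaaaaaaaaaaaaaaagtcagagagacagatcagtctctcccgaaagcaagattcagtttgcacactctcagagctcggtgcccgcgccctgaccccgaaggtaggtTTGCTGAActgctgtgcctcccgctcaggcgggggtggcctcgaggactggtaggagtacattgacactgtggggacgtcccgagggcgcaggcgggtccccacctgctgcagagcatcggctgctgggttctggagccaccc
Runx1 proximal promoter, GRCm38.p6 chr16:92697330-92697579, minus strand: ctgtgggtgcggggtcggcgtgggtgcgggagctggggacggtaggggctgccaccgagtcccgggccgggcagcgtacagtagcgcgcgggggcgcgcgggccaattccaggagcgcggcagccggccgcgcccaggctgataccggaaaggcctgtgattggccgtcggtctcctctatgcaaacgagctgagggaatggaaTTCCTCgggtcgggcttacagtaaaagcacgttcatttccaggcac
The capitals in the Gfi1 window mark TTGCTGAA, which reads as the C/EBP motif TTNNGCAA on the other strand, at -143 to -136 from the start. The MAF motif TGCTGA lies inside it, at -142 to -137. The capitals in the Runx1 window mark TTCCTC, the other strand of the PU.1 core GAGGAA, at -46 to -41. The distal Runx1 window (chr16:92826025-92826324) held the GFI1 core AAATC at -232 to -228 and the RUNX motif TGTGGT at 29 to 34 and at 37 to 42 past the start. The KLF motif CACACCC was in none of the 7 windows, and the windows of Cebpa, Cebpb and Klf4 and the second Gfi1 window held none of the 6 motifs, searched on both strands. Such letters are common: of 32841 RefSeq promoter windows of the same length, 28.28% held GAGGAA, 10.8% TTNNGCAA, 35.86% AAATC, 16.76% TGTGGT, 7.953% CACACCC and 19.48% TGCTGA. A match is a string of letters and no measured binding.

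Spi1 (ENSMUSG00000002111, chromosome 2, 91082390 to 91115756) encodes PU.1, the ETS factor needed for all myeloid lineages. It had 4668 reads in the CHBP- and 3875 in the CHBP+ library, or 85.7 and 72.0 FPKM, the highest level of the 9 genes in both libraries. Its CPM ratio was 0.841 (0.805 to 0.877), which is 1.19-fold lower in CHBP+ M-MDSC, and its log2 ratio was -0.25. With bulk RNA from sorted cells, fewer cells of a type and less RNA per cell cannot be told apart, here and for every value that follows. Of the kept genes, 95.4% had a lower level in the CHBP- library and 94.9% in the CHBP+ library, so PU.1 mRNA was abundant in either culture.

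Runx1 (ENSMUSG00000022952, chromosome 16, 92601466 to 92826149) encodes the DNA-binding subunit of core-binding factor, which acts with PU.1 and C/EBPα on the promoters of myeloid receptors. It had 1718 reads in the CHBP- and 1897 in the CHBP+ library, or 5.72 and 6.39 FPKM. Between the libraries, the CPM ratio was 1.12 (1.05 to 1.19) and the log2 ratio 0.14, higher in CHBP+ M-MDSC. Runx1 has the longest implied gene length of the set, and its sign turned once the trend with length was removed (-0.13 with the implied gene length and -0.18 with the longest transcript).

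Cebpa (ENSMUSG00000034957, chromosome 7, 35119293 to 35121928) encodes C/EBPα, which starts the granulocyte and monocyte programme and restrains the cell cycle. It had 1214 reads in the CHBP- and 1013 in the CHBP+ library, or 15.4 and 13.0 FPKM. Its CPM ratio was 0.845 (0.777 to 0.919), or 1.18-fold lower in CHBP+ M-MDSC, close to that of Spi1. There were 3.85 reads of Spi1 for each read of Cebpa in CHBP- and 3.83 in CHBP+ M-MDSC, and the change in this ratio was 0.995 (0.905 to 1.09). Such a ratio of reads within a library does not depend on how the libraries are scaled against each other. It can still carry the difference that went with gene length.

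Cebpb (ENSMUSG00000056501, chromosome 2, 167688915 to 167690418) encodes C/EBPβ, the factor of emergency granulopoiesis and of suppressor function in MDSC. It had 1518 reads in the CHBP- and 1001 in the CHBP+ library, or 61.2 and 40.9 FPKM. The CPM ratio was 0.668 (0.616 to 0.724) and the log2 ratio -0.57, so that it lay just short of the 1.5-fold line. Against Cebpa, its reads changed by a factor of 0.790 (0.703 to 0.888) from CHBP- to CHBP+ M-MDSC.

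Cebpe (ENSMUSG00000052435, chromosome 14, 54710363 to 54712174) encodes C/EBPε, the factor of secondary granule genes in maturing granulocytes. It had 1099 reads in the CHBP- and 726 in the CHBP+ library, or 53.9 and 36.0 FPKM. Its CPM ratio was 0.669 (0.608 to 0.735) and the log2 ratio -0.57, as close to the line as Cebpb. The ratio of Cebpe to Cebpb reads changed by a factor of 1.00 (0.884 to 1.14) between the libraries.

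Cebpd (ENSMUSG00000071637, chromosome 16, 15887286 to 15888466) encodes C/EBPδ, which works with C/EBPβ in acute inflammatory responses. It had 200 reads in the CHBP- and 136 in the CHBP+ library, or 10.3 and 7.08 FPKM. Between the libraries, the CPM ratio was 0.689 (0.550 to 0.860) and the log2 ratio -0.48. With so few reads its interval was the widest among the C/EBP genes, and its ratio to Cebpb changed by a factor of 1.03 (0.811 to 1.31). The RefSeq gene runs on to 15889545, 2260 bases in all, so the row used here covers 1181 bases of it.

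The reads of the 4 C/EBP genes summed to 4031 in the CHBP- and 2876 in the CHBP+ library, a CPM ratio of 0.722 (0.688 to 0.758). Cebpb and Cebpe made up most of the summed FPKM of the family, 141 in the CHBP- and 97.0 in the CHBP+ library. The share of Cebpb was 43.5% and 42.2%, that of Cebpe 38.3% and 37.1%, that of Cebpa 10.9% and 13.4%, and that of Cebpd 7.31% and 7.30%. With merged GENCODE M1 exons as the length, Cebpa made up 18.2% and 22.0%, Cebpb 39.9% and 38.0%, Cebpe 35.1% and 33.5%, and Cebpd 6.71% and 6.58%. By either length the summed level was lower in CHBP+ M-MDSC while the make-up of the family moved by a few percentage points, towards Cebpa.

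Klf4 (ENSMUSG00000003032, chromosome 4, 55527143 to 55532466) encodes a zinc-finger factor that PU.1 induces and that inflammatory monocytes need. It had 243 reads in the CHBP- and 233 in the CHBP+ library, or 3.34 and 3.25 FPKM. The CPM ratio was 0.971 (0.808 to 1.17), and its interval was the only one of the 9 to include 1. A difference in Klf4 mRNA was not detectable at this depth.

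Maf (ENSMUSG00000055435, chromosome 8, 115682942 to 115707794) encodes c-MAF, a bZIP factor of mature tissue macrophages. It had 378 reads in the CHBP- and 463 in the CHBP+ library, or 2.39 and 2.97 FPKM, the lowest level of the set in both libraries. Between the libraries, the CPM ratio was 1.24 (1.08 to 1.42) and the log2 ratio 0.23, the highest of the 9.

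Gfi1 (ENSMUSG00000029275, chromosome 5, 107716657 to 107726036) encodes a zinc-finger repressor that favours granulocyte over monocyte fate and is also used by lymphoid cells. It had 659 reads in the CHBP- and 336 in the CHBP+ library, or 6.67 FPKM (exact Poisson 95% interval 6.17 to 7.20) and 3.44 FPKM (3.09 to 3.83). Its CPM ratio was 0.516 (0.451 to 0.590), which is 1.94-fold lower in CHBP+ M-MDSC (1.70 to 2.22), and the log2 ratio was -0.79. Of the kept genes, 0.831% had a lower log2 ratio. Its level exceeded that of 50.4% of the kept genes in one culture, CHBP-, and of 30.4% in the other.

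**Figure D1:**
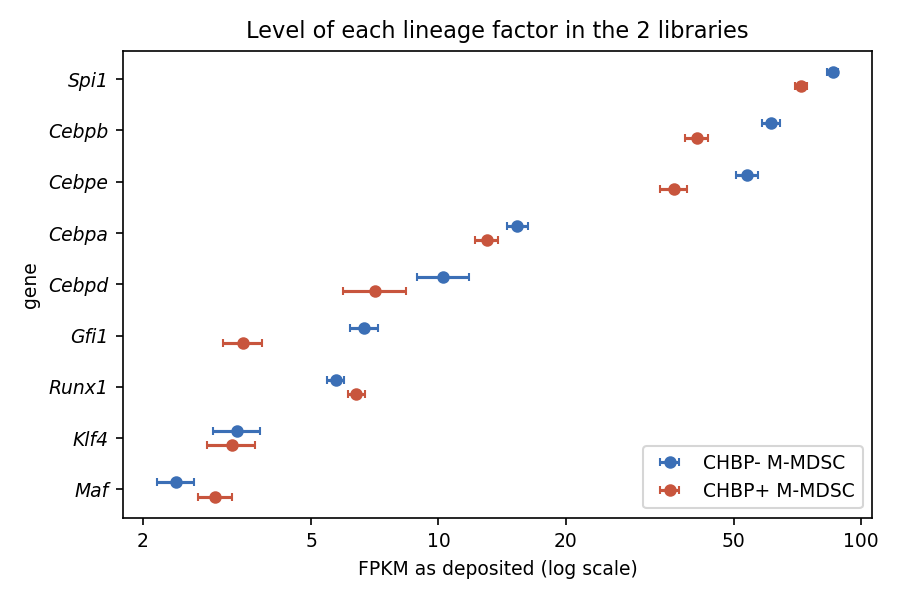
FPKM (log scale) of the 9 genes in CHBP- and CHBP+ M-MDSC, 1 library each, with exact Poisson 95% intervals of the reads as bars. Spi1 was highest in both libraries (85.7 and 72.0 FPKM) and Maf lowest (2.39 and 2.97), and the points of Gfi1 stand clear of each other (6.67 and 3.44).

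Of the 9 genes, 2 had a log2 ratio above 0 and 7 below it. Past 1.5-fold, 0 were higher, where 3.42% of all kept genes were, and 1 was lower, where 2.89% of all kept genes were. The interval of the CPM ratio lay below 1 for 6 of the 9, against 31.0% of all kept genes, and above 1 for 2, against 27.9%. The high shares over all genes show that an interval clear of 1 was common between these libraries. The median log2 ratio of the 9 genes was -0.25, and that of all kept genes was -0.03.

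**Figure D2:**
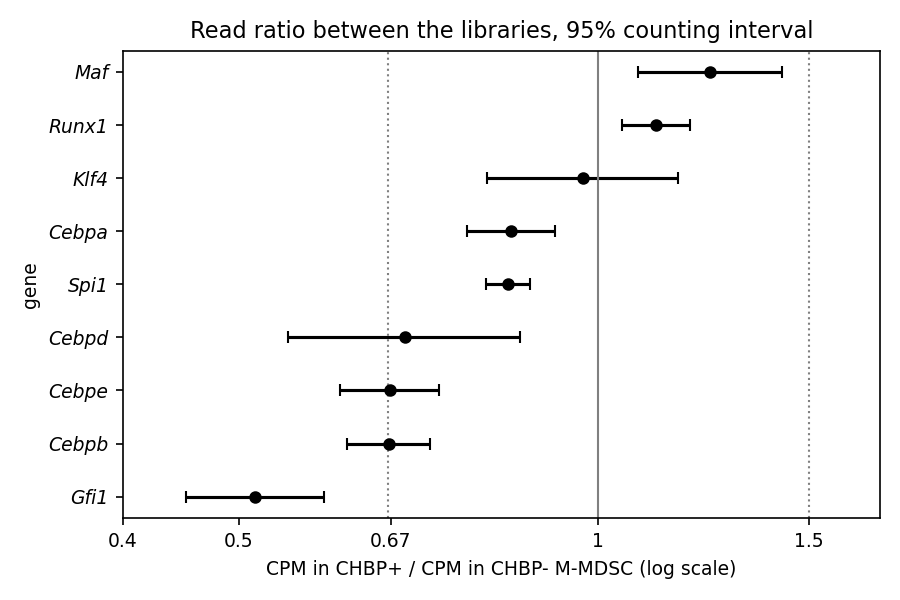
CPM ratio of CHBP+ over CHBP- M-MDSC (log scale) of each gene, with exact 95% intervals for counting error as bars and dotted lines at 1.5-fold. Gfi1 (0.516) lies past the lower line, Cebpb (0.668) and Cebpe (0.669) lie just short of it, and the interval of Klf4 spans 1.

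Read ratios within the libraries were taken for 12 pairs of genes, picked with their values known, and 6 of them include the repressor Gfi1. Relative to Gfi1, reads of Spi1 were higher by a factor of 1.63 (1.42 to 1.88) in CHBP+ M-MDSC, and those of Klf4 by 1.88 (1.5 to 2.36). Reads of Cebpe, the other granulocyte factor, were higher relative to Gfi1 by 1.30 (1.10 to 1.53), so Gfi1 differed more than Cebpe did. Irf8, which drives monocyte fate and had 1849 and 1778 reads, was higher relative to Gfi1 by 1.89 (1.63 to 2.19).

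The order of the 9 genes by FPKM in CHBP- M-MDSC was Spi1, Cebpb, Cebpe, Cebpa, Cebpd, Gfi1, Runx1, Klf4 and Maf, and no neighbours had overlapping Poisson intervals. In CHBP+ M-MDSC, Gfi1 stood below Runx1 and the rest of the order was as in CHBP- M-MDSC. There the intervals overlapped between Cebpb and Cebpe, Cebpd and Runx1, Gfi1 and Klf4, and Klf4 and Maf, so that these neighbours were not told apart by counting error. In both libraries Spi1, Cebpb, Cebpe and Cebpa headed the order and the macrophage factor Maf closed it.

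Levels between genes depend on the length used for each gene, which the deposited counts and FPKM imply. This length was the same in both libraries to within 0.0211%, so it cancels from the CPM ratio and enters the log2 ratio only through the added 1 FPKM. It exceeded the listed genomic span of 685 kept genes (6.26%). Cebpa, a gene of a single exon, had an implied length of 4787 bases on a span of 2636 bases. With the merged exon length in the GENCODE M1 annotation, 2634 bases, its level would be 28.0 FPKM in CHBP- and 23.6 in CHBP+ M-MDSC in place of 15.4 and 13.0.

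For Runx1 the merged exons came to 7798 bases against an implied 18224, and its level became 13.4 and 14.9 FPKM. For Gfi1 they came to 3249 against 5991 bases, and its level became 12.3 and 6.35 FPKM, with a log2 ratio of -0.86. The lengths of Cebpb (1504 bases), Cebpd (1180) and Cebpe (1238) were equal in both. By merged length, the order in CHBP- M-MDSC had Runx1, Gfi1 and Cebpd after Cebpa, with overlap between Runx1 and Gfi1 and between Gfi1 and Cebpd, and in CHBP+ M-MDSC Runx1, Cebpd and Gfi1, with overlap between Cebpd and Gfi1. Spi1, Cebpb, Cebpe and Cebpa kept the first places and Klf4 and Maf the last.

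**Figure D3:**
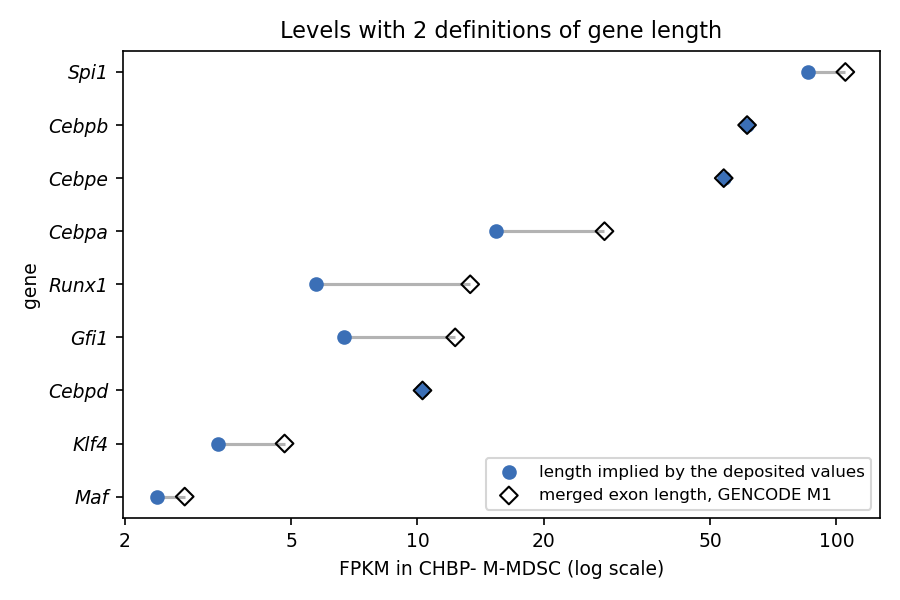
FPKM (log scale) of the 9 genes in CHBP- M-MDSC with the deposited gene length and with merged GENCODE M1 exons. By merged length, Cebpa (28.0 FPKM), Runx1 (13.4) and Gfi1 (12.3) stand higher, whereas Cebpb, Cebpd and Cebpe do not move.

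Across all 10948 kept genes, the log2 ratio went up with gene length (Spearman's rho 0.478 with the implied length, and 0.658 with the longest GENCODE M1 transcript over 10508 genes, which are not independent replicates). The median log2 ratio was -0.30 in the 1094 shortest genes and 0.23 in as many of the longest. The 9 genes showed the same order, Gfi1 apart, with the short Cebpb, Cebpd and Cebpe low and the long Runx1 and Maf high (rho 0.55 with implied length and 0.67 with the longest transcript, n = 9, a description over genes of the same libraries).

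With the trend over implied length subtracted, the log2 ratio of Gfi1 was -0.80, and with that over the longest transcript -0.75. Gfi1 thus kept its size. Cebpb came to -0.37 and -0.36, Cebpe to -0.35 and -0.32, and Cebpd to -0.26 and -0.22, all nearer to 0 than before. Spi1 came to -0.15 and -0.11 and Cebpa to -0.20 and -0.16. Maf came to 0.11 and -0.04, Klf4 to 0.01 and -0.01, and Runx1 to -0.13 and -0.18, so the direction of these 3 genes depended on the trend. Over all kept genes, 374 were higher and 316 lower past 1.5-fold as measured, 312 and 168 with the trend over implied length subtracted, and 229 and 111 with that over the longest transcript.

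**Figure D4:**
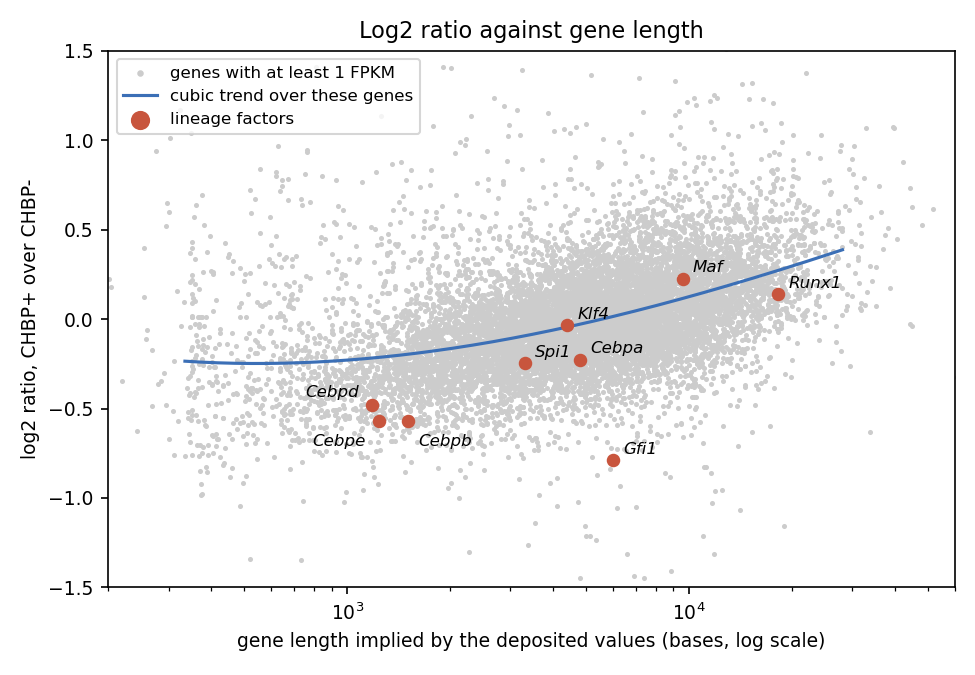
Log2 ratio of all kept genes (grey) and of the 9 genes (labelled) against the implied gene length (log scale), with the fitted trend as a line. The short Cebpb, Cebpd and Cebpe lie low and the long Maf and Runx1 high, Klf4 lies on the line and Gfi1 (-0.79) lies farthest below it of the 9. Outside the axes lie 68 genes.

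Reads of overlapping genes could not be told apart where the counting did not use strand. The row of Cebpb shares 908 bases with Tmem189, which had 2780 reads in CHBP- and 2449 in CHBP+ M-MDSC, and in GENCODE M1 312 of its 1504 exon bases are shared with a gene on the other strand. With the reads of both rows summed, the CPM ratio was 0.813 (0.777 to 0.850) in place of 0.668. Gfi1 shares 880 bases with A430072P03Rik, which had 15 and 17 reads, and the summed ratio was 0.530 (0.465 to 0.604), nearly that of Gfi1 alone. The rows that overlap Cebpa (a row with no gene symbol beyond a clone name, 5 and 6 reads), Runx1 (Gm26626, 18 and 15 reads) and Maf (Gm15655, 0 and 0 reads) added little. Spi1, Cebpd, Cebpe and Klf4 overlapped no other row.

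Of 26 family relatives and partners of the 9 factors, 24 were kept, with a median log2 ratio of 0.03. Past 1.5-fold, 0 were higher and 1 was lower, Klf2, a factor of quiescence in monocytes and lymphocytes, with 818 and 515 reads (26.9 and 17.1 FPKM, log2 ratio -0.62). With either length trend removed Klf2 was no longer past the line (-0.45 with the implied length and -0.46 with the longest transcript). Klf6, an injury-response factor of macrophages, had the highest level of these lists, 69.6 and 82.5 FPKM with a log2 ratio of 0.24.

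Gfi1b, the close relative of Gfi1 in erythroid and megakaryocytic cells, had 116 and 63 reads, a CPM ratio of 0.550 (0.398 to 0.754) and a log2 ratio of -0.54. Its ratio to Gfi1 changed by a factor of 1.07 (0.750 to 1.5). Of the co-repressors that GFI1 recruits, Kdm1a had a log2 ratio of 0.10 and Rcor1, with 1504 and 1987 reads, one of 0.39, so the partners of GFI1 were not lower with it.

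Among bZIP relatives of the C/EBP genes, Cebpg, a partner that binds C/EBP sites, had 1937 and 1789 reads (log2 ratio -0.09), and Ddit3, which encodes the stress factor CHOP, had 1842 and 1475 (-0.30). Trib1, whose product sends C/EBPα to degradation, had a log2 ratio of 0.02, and Trib2 had 22 and 17 reads, under 1 FPKM. Among ETS relatives of Spi1, Spib, the factor of plasmacytoid dendritic and B cells, was at -0.45 (368 and 251 reads), and Fli1, Ets2, Elf1, Elf4 and Etv6 lay between 0.02 and 0.38. Spic, the factor of iron-recycling macrophages, had 45 and 47 reads, under 1 FPKM.

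Cbfb, the partner subunit of RUNX1, had 2828 and 2826 reads (log2 ratio 0.02), and the ratio of Runx1 to Cbfb changed by a factor of 1.10 (1.02 to 1.20). The direction of this pair depended on the trend with length. With the trend over implied length removed, Runx1 (-0.13) lay below Cbfb (-0.02). Runx2 and Runx3 had log2 ratios of 0.08 and 0.07. The small MAF proteins' genes Maff (-0.12), Mafg (0.03) and Mafk (-0.11) lay near 0, as did the KLF relative Klf10 (0.02). Klf3 (0.20) and Klf13 (0.21) were higher in CHBP+ M-MDSC, with CPM ratios of 1.18 (1.09 to 1.27) and 1.16 (1.11 to 1.22).

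Of 20 other lineage factors, 18 were kept, 2 were higher past 1.5-fold and 0 lower, and the median log2 ratio was -0.04. Egr2, an immediate early factor that opposes Gfi1 in the choice of macrophage fate, had 545 and 2035 reads, or 6.09 and 23.0 FPKM, a CPM ratio of 3.78 (3.44 to 4.16) and a log2 ratio of 1.76. Egr3 had 243 and 391 reads (0.65). Both genes stayed past the line with either length trend removed. In reads, Egr2 over Gfi1 was higher by a factor of 7.32 (6.21 to 8.64) in CHBP+ M-MDSC, the widest shift among the 12 pairs. Id2, which holds bHLH factors off DNA, was the most abundant of this list at 175 and 157 FPKM (-0.16), and Irf8 stood at a CPM ratio of 0.974 (0.912 to 1.04).

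Genes known as targets of the 9 factors were read for both directions. Of 18 PU.1 target genes on 19 rows, 19 rows were kept, 2 were higher past 1.5-fold, 0 were lower, and the median log2 ratio was 0.02, while Spi1 itself was at -0.25. With the trend over implied length removed, the median of these rows was 0.14 and Spi1 was at -0.15. The rows past 1.5-fold were Tlr4, the receptor for endotoxin, with 556 and 4443 reads (log2 ratio 2.79), and 1 of 2 rows of the integrin gene Itgam (8703 and 13147 reads, 0.61). The other Itgam row had 18653 and 27265 reads (0.56), just short of the line. Reads of Itgam may be split between its rows. Lyz2, the lysozyme of myeloid cells, was the most abundant at 9756 and 7830 FPKM (-0.32).

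Of 11 granule genes, which C/EBPα, C/EBPε and GFI1 govern, all were kept, 0 were higher and 2 lower past 1.5-fold, with a median log2 ratio of -0.22. The lower genes encode the azurophil proteases proteinase 3 (Prtn3, 1608 and 911 reads, -0.77, with a span that overlaps Lppr3) and neutrophil elastase (Elane, 1141 and 694 reads, -0.69). Of the 11 granule genes, 8 were below 0 and 3 above, or 6 and 5 with the trend over implied length removed. Mmp8, a collagenase of secondary granules, was the most abundant at 1290 and 1546 FPKM and was 1 of the 3 above 0 (0.26). Without the trend over implied length the median was -0.09, Elane (-0.45) was no longer past the line and Prtn3 (-0.66) was, and without that over the longest transcript neither was (-0.39 and -0.49).

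Of 11 inflammatory target genes of C/EBPβ and C/EBPδ, 9 were kept, 0 were higher and 1 lower past 1.5-fold, the acute-phase gene Saa3 (59 and 34 reads, -0.65), and the median log2 ratio was -0.09. Saa3 was not past the line with either length trend removed (-0.40 and -0.31). Chil3, a chitinase-like protein of myeloid cells, was the most abundant at 530 and 546 FPKM (0.04). Of 10 macrophage genes linked to MAF, 6 were kept, none passed 1.5-fold and the median was 0.04. Of the 6, 3 were above 0, among them Mrc1, the mannose receptor, at 8.17 and 11.9 FPKM (0.49). The 3 below 0 were C1qa (-0.33), C1qb (-0.12) and C1qc (-0.07). With the trend over implied length removed, 5 were above 0 and 1 below.

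**Figure D5:**
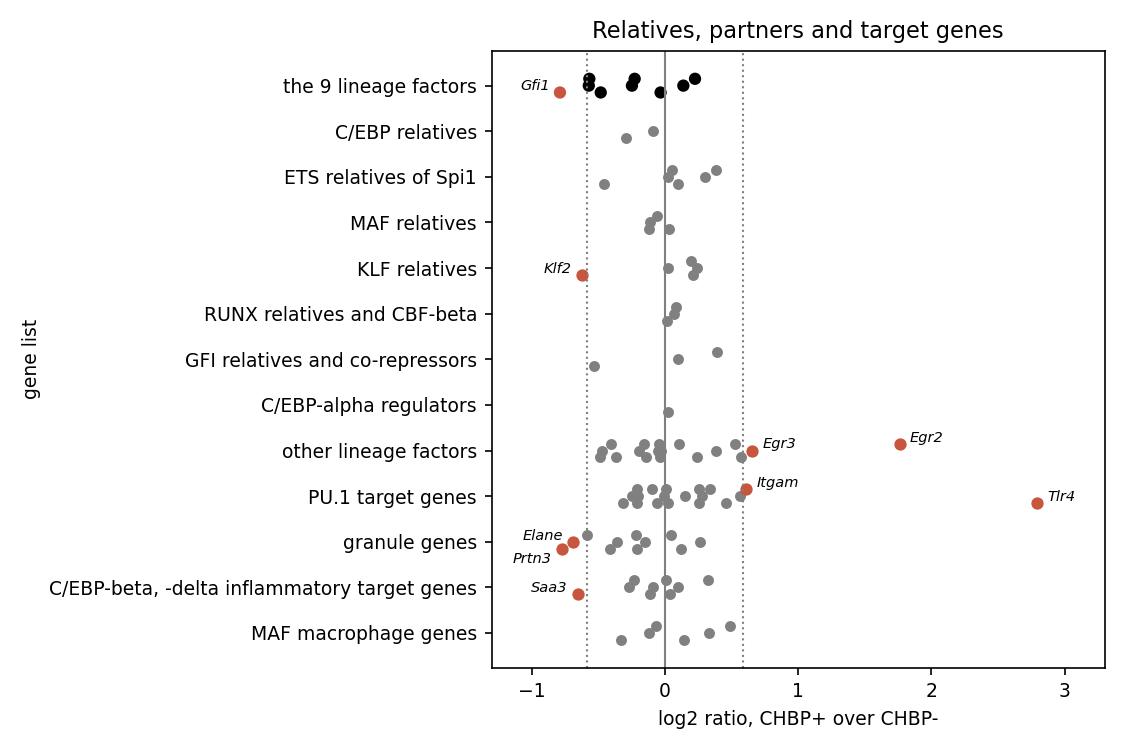
Log2 ratio of each kept gene of the 9 lineage factors, of their relatives and of their target genes, 1 row per list, with dotted lines at 1.5-fold and genes past them in colour and named. Most lists straddle 0, and Gfi1, Klf2, Prtn3, Elane and Saa3 lie past the lower line and Egr2, Egr3, Tlr4 and Itgam past the upper.

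The sorted cells carried monocyte genes at high level. The 11 rows of monocyte or macrophage markers summed to 10851 FPKM in CHBP- and 9041 in CHBP+ M-MDSC, of which Lyz2 was 9756 and 7830, and without it the sum was higher in CHBP+ M-MDSC (1094 and 1211). The median log2 ratio of the list was 0.01, and the sorting antigen gene Ly6c2, which has a near-identical paralog, was lower (4091 and 2411 reads, -0.73, or -0.68 and -0.41 with the length trends removed). Markers of other cells that also use these factors were present. All 10 neutrophil markers were kept and summed to 3289 and 3015 FPKM (1999 and 1469 without Mmp8), with 46 and 44 reads of Ly6g. S100a8 (576 and 391 FPKM) and S100a9 (1269 and 937) made up most of the sum without Mmp8. The median log2 ratio of these markers was -0.15, with 3 above 0 and 7 below. With the trend over implied length removed it was 0.04, with 7 above 0 and 3 below. Mast cell or basophil markers, 7 of 7 kept, summed to 337 and 282 FPKM, with Mcpt8 lower (650 and 416 reads) and Ms4a2 higher (182 and 446) past 1.5-fold. With either length trend removed Ms4a2 stayed past the line (1.08 and 1.13) and Mcpt8 did not (-0.37 and -0.30). Eosinophil markers, 3 of 5 kept, summed to 115 and 84.8 FPKM.

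Lower sums in CHBP+ M-MDSC were also seen for erythroid markers (6 of 7 kept, 1305 and 602 FPKM), B cell markers (5 of 6, 41.7 and 28.4) and T cell markers (2 of 7, 5.93 and 4.89). Past 1.5-fold lower were the globin genes Hbb-bs (20238 and 5989 reads), Hbb-bt and Hba-a2 and the B cell gene Cd79a (444 and 248 reads). Of the 5 NK cell markers 1 was kept, Nkg7, which was lower past 1.5-fold (5.61 and 3.11 FPKM), while the rest summed to 0.602 and 0.922 FPKM. Of these calls in the last lists, Hbb-bs stayed past the line with either length trend removed, and Hbb-bt, Hba-a2, Cd79a and Nkg7 did not. Progenitor markers, 4 of 6 kept, summed to 21.0 and 21.7 FPKM, and dendritic cell markers, 5 of 9 kept, to 131 and 163. Itgax, an integrin gene also used by macrophages, was 107 and 142 of the dendritic sum, and the other rows summed to 24.5 and 20.9. Of those rows Ccr7 was the most abundant and was lower in CHBP+ M-MDSC (17.6 and 13.1 FPKM). Clec9a (148 and 218 reads) and Zbtb46 (49 and 93 reads, under 1 FPKM) were higher. Ncr1 of the NK list and Xcr1 of the dendritic list had no reads in either library, where 3 reads would be 0.182 CPM in CHBP- and 0.184 in CHBP+ M-MDSC. The part of these cells in the values of Gfi1, Gfi1b, Cebpe and the granule genes was not tested.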

How the data were processed

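RNA of 1 CHBP- and 1 CHBP+ M-MDSC library was sequenced. The deposited counts are whole reads per gene. The deposited FPKM equal those counts divided by a gene length and the total of the counts, with no other scaling by the authors. The paper's methods name TopHat2, HT-seq, DESeq and mm9, whereas the submitters' processing notes name HISAT2 2.0.4, Cufflinks 2.1.1, Cuffdiff and mm10 (GRCm38). The deposited coordinates lie on GRCm38 and are given as deposited. Handling of strand and multi-mapping reads in the counting is not given in the sources used here. Per the labels, bases under quality 20, reads under 25 bases and ribosomal reads were removed.

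Samples were grouped by their labels. No model was fitted, since 1 library per condition leaves no spread between replicates. The log2 ratio, the 1.5-fold line and exact intervals were computed as described with the results (Python 3.11.15, numpy 2.4.6, pandas 2.3.3, scipy 1.17.1, matplotlib 3.10.9), and the calculations were tested on simulated data. Reads without molecular identifiers are not independent molecules. Trends with length were cubic polynomials in log length. GENCODE M1 on NCBIM37 gave transcript and exon lengths by gene identifier only, and RefSeq GRCm38.p6 gave promoters. Scaling alternatives came from edgeR 4.0.16 and DESeq2 1.42.0 in R 4.3.3.

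All 9 genes are given. Of the lists of relatives, lineage factors and targets, a gene was named where it passed 1.5-fold, was the highest by FPKM in its list or was a family relative, and overlapping genes were named, except for 1 gene that is not reported here. Partners of GFI1, Irf8 and the 12 pairs were chosen outside that rule. The 9 genes and the lists were chosen with earlier results of these data known.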

Additional observations from a re-analysis of the deposited data

How the results depend on the processing

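No paired analysis was possible because each condition has 1 library, and for the same reason no replicate could be left out. Gfi1 was the 1 gene of the 9 past 1.5-fold, and lower, under each alternative that kept this line, and 0 were higher. Past 2-fold, 0 of the 9 were lower, and 85 of all genes were higher and 46 lower. A pseudocount of 0.1 FPKM gave 665 genes higher and 571 lower. A minimum of 5 FPKM left 7 of the 9 genes, with a median log2 ratio of -0.48, and 218 genes higher and 209 lower. With CPM, 609 genes were higher. Without the trend over implied length, 168 genes were lower. Chosen after seeing the data, removal of the trend over the longest GENCODE M1 transcript gave a median of -0.18 for the 9 genes and 229 genes higher and 111 lower, and merged exon lengths moved no count by more than 1.5 times. Scaling by median, trimmed mean of M values or size factors changed no direction among the 9 genes. The log2 ratio of Gfi1 ran from -0.93 to -0.75 over 11 alternatives, and that of Cebpb from -0.58 to -0.30. The value of -0.30 came from reads summed with Tmem189, which gave 2780 of 4298 reads in CHBP- and 2449 of 3450 in CHBP+ M-MDSC. Without that alternative, the value of Cebpb nearest to 0 was -0.36. Directions turned for Klf4 (0.01), Maf (-0.04) and Runx1 (-0.13 and -0.18) under removal of the length trends alone. Depth limits Cebpd, Klf4 and Maf most, and intervals cover counting error, not the spread between cultures.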
